A study of Homo sapiens with 9 samples.

Results

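GATA6, TBX3, EN2 and ZIC2 are 4 developmental transcription factors whose RNA was higher with CIC::NUTM1 and lower with CIC::DUX4 than with empty vector. They are described here with 6 paralogs of the same families: GATA2, GATA3, GATA4, TBX2, EN1 and ZIC5. These 10 genes belong to 30 listed GATA, T-box, engrailed and ZIC genes in a count table of 62700 genes, of which 17576 passed the abundance filter and were tested. All 10 passed that filter. The first 4 were chosen by their measured changes against empty vector, so those changes are given as a description and carry no test. The 6 paralogs were taken for their family.

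The RNA came from HEK293T, an immortal line from human embryonic kidney in which plasmids are easily expressed. Cells received an empty vector, HA-CIC(ex20)::NUTM1(ex6), in which CIC is joined at its exon 20 to exon 6 of NUTM1, or HA-CIC::DUX4, all by plasmid transfection. CIC (capicua) is a DNA-binding repressor that is found fused to DUX4 or NUTM1 in sarcomas. Each of the 3 groups had 3 libraries of polyA RNA, with 300000 cells used for each condition and a different day for each replicate, and RNA was taken about 48 hours later. All groups share the cell line and the transfection, the fusion was carried by a plasmid and not by the chromosomes, and the share of cells that took it up was not analysed here. The transcripts of CIC, NUTM1 and DUX4 were not analysed here.

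GATA factors are zinc finger proteins that bind the sequence GATA, with GATA4 and GATA6 known from heart, gut and endoderm and GATA2 and GATA3 from blood, placenta, ear and urinary tract. TBX2 and TBX3 are T-box repressors of limb, heart and mammary gland, EN1 and EN2 are engrailed homeodomain repressors of the midbrain and hindbrain, and ZIC2 and ZIC5 are zinc finger factors of the dorsal neural tube. In development these genes mark embryonic regions, and embryonic kidney lines carry a mixture of such factors.

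RefSeq promoter windows (GRCh38.p14) were matched by symbol for 6 of the 10 genes: GATA6, EN2, ZIC2, GATA2, GATA3 and ZIC5. The stretch just before the gene is shown for 3 genes chosen for their opposite changes and for ZIC5, which lies next to ZIC2. Each reads 5′ to 3′ on the strand of the gene, with CG dinucleotides in capitals. They are chr18:22169339-22169442 (plus strand) for GATA6, chr7:155457979-155458128 (plus strand) for EN2, chr13:99981622-99981771 (plus strand) for ZIC2 and chr13:99971910-99972059 (minus strand) for ZIC5.
GATA6: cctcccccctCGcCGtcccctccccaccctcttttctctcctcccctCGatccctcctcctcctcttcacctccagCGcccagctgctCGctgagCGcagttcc
EN2: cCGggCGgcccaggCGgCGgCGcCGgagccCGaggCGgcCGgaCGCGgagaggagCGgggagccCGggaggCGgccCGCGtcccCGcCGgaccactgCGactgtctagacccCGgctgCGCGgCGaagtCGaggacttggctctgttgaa
ZIC2: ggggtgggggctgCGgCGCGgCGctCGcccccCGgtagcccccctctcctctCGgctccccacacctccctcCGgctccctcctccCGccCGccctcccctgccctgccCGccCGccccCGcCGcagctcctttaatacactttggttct
ZIC5: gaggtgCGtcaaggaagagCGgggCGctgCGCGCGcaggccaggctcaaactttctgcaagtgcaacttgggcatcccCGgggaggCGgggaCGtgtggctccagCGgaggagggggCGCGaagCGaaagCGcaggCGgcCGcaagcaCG

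The 4 windows, each 250 bases before to 50 after the RefSeq start, had more CG dinucleotides than the median window. Their GC content was 66.7% for GATA6, 78.0% for EN2, 75.0% for ZIC2 and 70.3% for ZIC5, against a median of 58.7% over 35116 windows of the same length. EN2 held 50 CG dinucleotides, and 1.29% of all windows held as many. ZIC2 held 35 (14.1% of windows held as many), ZIC5 held 33 (17.2%) and GATA6 held 25 (32%), with a median of 14 over all windows. Both strands of every window of GATA6, EN2, ZIC2, GATA2, GATA3 and ZIC5 were searched for the CIC octamers TGAATGAA, TGAATGGA, TCAATGAA and TCAATGGA, for the GATA motifs AGATAA and TGATAA, for the T-box motif AGGTGTGA and for the homeodomain motif TAATTA. None of these letters occurred there. Of all windows, 3.77% held a CIC octamer, 16.3% a GATA motif, 0.98% the T-box motif and 4.84% the homeodomain motif.

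Library totals lay between 16970771 and 33655445 counts, and levels are given as CPM, read counts relative to library size, scaled with edgeR's TMM factors. All 6 listed epithelial and mesenchymal genes of 293T cells were at 1 CPM or more in every group. Their summed level was 756 to 808 CPM with empty vector, 928 to 1007 with CIC::NUTM1 and 845 to 894.5 with CIC::DUX4. The mature kidney markers UMOD and SLC34A1 were at 0 in all 9 libraries; the summed level of the 7 markers of that list was 0.0586 to 0.229 CPM with empty vector, 3.06 to 4.5 with CIC::NUTM1 and 2.35 to 4.76 with CIC::DUX4. Of 4 blood markers and 3 endothelial markers none reached 1 CPM in any group, and 3 fibroblast markers summed to 2.12 to 3.25 CPM with empty vector, 7.38 to 9.12 with CIC::NUTM1 and 5.59 to 9.27 with CIC::DUX4. The part of these marker levels in the changes below was not tested. In bulk RNA, a change in the number of cells that express a gene and a change of RNA per cell cannot be told apart.

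**Figure D1:**
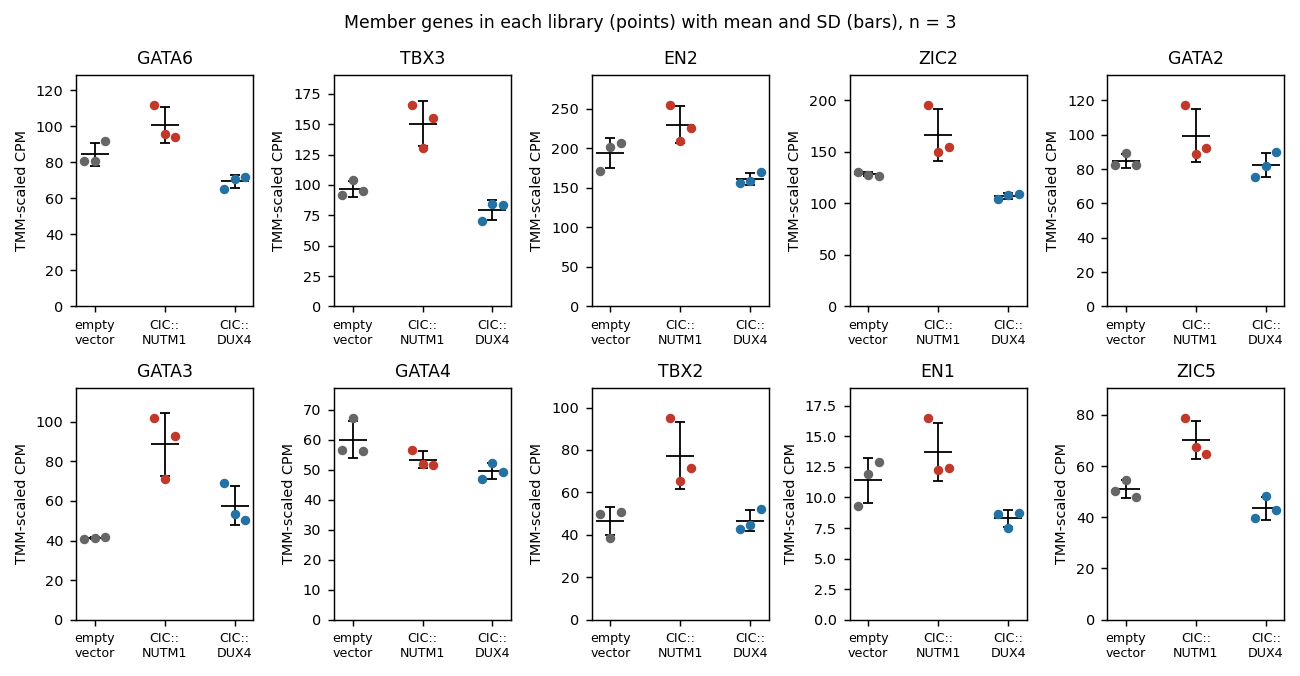
TMM-scaled CPM (vertical axes, starting at 0) of the 10 genes in each of the 9 libraries (points), with the mean and SD over 3 libraries of each group (bars). In GATA6, TBX3, EN2 and ZIC2 the CIC::DUX4 libraries lie below and the CIC::NUTM1 libraries above all 3 empty vector libraries, whereas GATA3 is above empty vector with both fusions.

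GATA6 (ENSG00000141448, GRCh38 chr18:22169443-22202528, plus strand), the GATA factor of early endoderm and heart, was at 80.6, 80.6 and 91.9 CPM in empty vector replicates 1 to 3, at 112, 95.7 and 94.1 CPM with CIC::NUTM1 and at 65.2, 70.9 and 72.0 CPM with CIC::DUX4. No library of one group overlapped another group, and CIC::NUTM1 replicate 1 was the highest of the 9. The means were 84.4 ± 6.54, 100.6 ± 9.93 and 69.4 ± 3.67 CPM (SD, n = 3 each). Relative to empty vector the fitted log2 change was 0.25 ± 0.08 (SE) with CIC::NUTM1 and -0.28 ± 0.08 with CIC::DUX4, and the fusions differed by 0.54 ± 0.08. With each library left out in turn, the change lay between 0.17 and 0.32 for CIC::NUTM1 and between -0.32 and -0.22 for CIC::DUX4. It missed the threshold in 3 of 6 such fits for CIC::NUTM1, without empty vector replicate 1 or 2 or CIC::NUTM1 replicate 1. It also missed it in 3 of 6 for CIC::DUX4, without empty vector replicate 3 or CIC::DUX4 replicate 1 or 2. The antisense genes GATA6-AS1, ENSG00000264012 and ENSG00000266283 and the small RNA gene RNU6-702P overlap GATA6 on the other strand, and the use of strand in counting is not given in the sources used here.

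GATA3 (ENSG00000107485, chr10:8045378-8075203, plus strand), a GATA factor of T cells, breast and urinary tract, went the other way from GATA6 with CIC::DUX4. Its level was 40.7, 41.3 and 41.9 CPM with empty vector, 101.9, 71.2 and 92.9 with CIC::NUTM1 and 68.9, 53.6 and 50.6 with CIC::DUX4. The 3 groups did not overlap, and both fusion groups varied more among themselves than the empty vector group. GATA3 rose by 1.10 ± 0.13 on the log2 scale with CIC::NUTM1 (edgeR adjusted p = 7.06e-06), from 41.3 ± 0.595 to 88.7 ± 15.8 CPM. With CIC::DUX4 it rose by 0.49 ± 0.13 to 57.7 ± 9.84 CPM (edgeR adjusted p = 0.0221). This smaller rise lost the threshold without any 1 of the 3 empty vector libraries or without CIC::DUX4 replicate 1, where the adjusted p of edgeR reached up to 0.116 and the change was 0.34 at its lowest. The CIC::NUTM1 level of GATA3 exceeded that with CIC::DUX4 by 0.61 ± 0.12 (edgeR adjusted p = 0.00531), which held with each library left out. GATA3-AS1 overlaps it on the other strand and ENSG00000232638 on the same strand.

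GATA4 (ENSG00000136574, chr8:11676959-11760002, plus strand), the heart and gonad relative closest to GATA6, was at 56.5, 67.2 and 56.3 CPM with empty vector. It was at 56.6, 51.8 and 51.7 CPM with CIC::NUTM1 and at 46.9, 52.2 and 49.1 CPM with CIC::DUX4. All CIC::DUX4 libraries lay below the empty vector range, while CIC::NUTM1 replicate 1 fell inside it. GATA4 fell by 0.28 ± 0.09 with CIC::DUX4 (edgeR adjusted p = 0.0419), a call that was lost in 4 of 6 fits with a library left out (empty vector replicate 2 or 3, CIC::DUX4 replicate 1 or 3), where edgeR's adjusted p reached 0.292. With CIC::NUTM1 its log2 change was -0.17 (95% interval -0.35 to 0.0063, edgeR adjusted p = 0.204), so GATA4 did not show the rise that chose GATA6. The fusions differed by 0.11 in GATA4 (95% interval -0.07 to 0.29, edgeR adjusted p = 0.561).

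GATA2 (ENSG00000179348, chr3:128479427-128493185, minus strand), a factor of blood stem cells and endothelium, was at 82.6, 89.3 and 82.4 CPM with empty vector. It was at 117.5, 88.8 and 92.3 CPM with CIC::NUTM1 and at 75.6, 81.7 and 90.0 CPM with CIC::DUX4, and the groups overlapped in each comparison. GATA2 did not pass the test in any of them. Its log2 change was 0.23 with CIC::NUTM1 (95% interval 0.04 to 0.42, edgeR adjusted p = 0.102) and -0.04 with CIC::DUX4 (95% interval -0.23 to 0.15, edgeR adjusted p = 0.865). The difference between the fusions was 0.27 (95% interval 0.08 to 0.46, edgeR adjusted p = 0.0857). Without CIC::NUTM1 replicate 2 the rise with CIC::NUTM1 and the difference between the fusions both passed, at edgeR adjusted p = 0.0286 and 0.0253. GATA2-AS1, which overlaps GATA2 on the other strand, fell with CIC::NUTM1 by 0.29 ± 0.10 (edgeR adjusted p = 0.0466), a call lost in 4 of 6 fits with a library left out.

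GATA5, the remaining heart and gut factor of the family, was far lower, at 4.45 ± 0.626 CPM with empty vector, 2.54 ± 0.124 with CIC::NUTM1 and 3.42 ± 0.386 with CIC::DUX4. It fell by 0.81 ± 0.24 with CIC::NUTM1 (edgeR adjusted p = 0.0237), and that call was lost in 3 of 6 fits with a library left out, at an adjusted p of up to 0.122. Divided by exon length, the 6 GATA genes together gave 67.6 ± 2.26 CPM per kilobase with empty vector, 86.6 ± 10.5 with CIC::NUTM1 and 65.3 ± 0.272 with CIC::DUX4. GATA6 made up 31.6% of that sum with empty vector, 29.5% with CIC::NUTM1 and 26.9% with CIC::DUX4. The share of GATA3 was 17.8%, 29.7% and 25.7% in the same order, so with CIC::NUTM1 GATA3 and GATA6 stood at nearly the same level per kilobase, 25.8 ± 4.59 and 25.5 ± 2.52.

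TBX3 (ENSG00000135111, chr12:114670254-114684164, minus strand), a repressor of senescence genes and a limb and mammary gland factor, had the widest separation of the 4 chosen genes. Its level was 91.3, 103.8 and 94.6 CPM with empty vector, 166, 130.4 and 155 CPM with CIC::NUTM1 and 70.3, 84.6 and 83.4 CPM with CIC::DUX4. The lowest CIC::NUTM1 library was 130.4 CPM and the highest CIC::DUX4 library 84.6 CPM, with all empty vector libraries between them. The means were 96.6 ± 6.46, 150.5 ± 18.2 and 79.4 ± 7.95 CPM (SD, n = 3 each). The fitted log2 change was 0.64 ± 0.09 with CIC::NUTM1 and -0.29 ± 0.09 with CIC::DUX4, and the fusions differed by 0.92 ± 0.09. The rise ranged from 0.56 to 0.73 with each library left out and kept its call. The fall ranged from -0.34 to -0.20 and was not called without empty vector replicate 2 or 3 or CIC::DUX4 replicate 1. No annotated gene lies within 10 kb of TBX3, and its neighbour TBX5, 261.8 kb away, had 1 count in all 9 libraries.

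TBX2 (ENSG00000121068, chr17:61399896-61409466, plus strand), the closest paralog of TBX3 and like it a repressor of cell cycle inhibitor genes, followed TBX3 with CIC::NUTM1. It was at 49.8, 38.7 and 50.8 CPM with empty vector, 95.04, 65.4 and 71.7 CPM with CIC::NUTM1 and 42.7, 44.8 and 52.1 CPM with CIC::DUX4. Every CIC::NUTM1 library lay above all others, while the CIC::DUX4 and empty vector libraries overlapped. TBX2 rose by 0.74 ± 0.14 with CIC::NUTM1 (edgeR adjusted p = 0.00131), to 77.4 ± 15.6 from 46.4 ± 6.69 CPM. With CIC::NUTM1 it exceeded its CIC::DUX4 level by 0.73 ± 0.14 (edgeR adjusted p = 0.00352), and both calls held with each library left out. With CIC::DUX4 the change was 0.0042 (95% interval -0.29 to 0.30, edgeR adjusted p = 0.993). Only the lower end of this interval reaches the -0.29 fitted for TBX3, which was chosen for its fall. The antisense genes TBX2-AS1 and ENSG00000267131 overlap TBX2.

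TBX4, a hindlimb and lung factor 42.9 kb from TBX2, had 0, 2 and 2 counts with empty vector, 41, 34 and 34 with CIC::NUTM1 and 49, 22 and 20 with CIC::DUX4. Relative to empty vector its summed counts, scaled by library size, were 33.6 times as high with CIC::NUTM1 (exact 95% counting interval 12.7 to 125, edgeR adjusted p = 3.72e-06). With CIC::DUX4 the ratio was 27.2 (exact 95% counting interval 10.3 to 102, edgeR adjusted p = 2.55e-05). These intervals cover counting error only. Even so its mean was 1.84 ± 0.584 and 1.37 ± 0.44 CPM. TBX1, the pharyngeal T-box factor, made up 48.2% of the family's level per kilobase with empty vector and did not pass the test in any comparison, at 121.6, 117 and 117 CPM with empty vector, CIC::NUTM1 and CIC::DUX4. The share of TBX3 was 23.1% with empty vector, 30.4% with CIC::NUTM1 and 20.3% with CIC::DUX4, and that of TBX2 was 11%, 15.4% and 11.8%. Of 17 T-box genes, 13 were tested, and those called in any comparison were TBX2, TBX3 and TBX4. TBX3 was chosen for its changes against empty vector, so its calls are not read as a result. Among all genes tested, 15.3% were called for CIC::NUTM1 and 8.24% for CIC::DUX4, each against empty vector. A direct comparison of the fusions called 6.61%.

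EN2 (ENSG00000164778, chr7:155458129-155464831, plus strand), the engrailed gene of the cerebellum and midbrain, had the highest level per kilobase of the 10 genes in every group. It was at 171.8, 201.3 and 207 CPM with empty vector, 255, 208.8 and 226 CPM with CIC::NUTM1 and 155.5, 159 and 170.0 CPM with CIC::DUX4. The lowest CIC::NUTM1 library, at 208.8 CPM, was just above the highest empty vector library, at 207.1 CPM. The means were 193 ± 19.0, 229.9 ± 23.4 and 161.5 ± 7.57 CPM (SD, n = 3 each). The fitted log2 change was 0.25 ± 0.08 with CIC::NUTM1 and -0.26 ± 0.08 with CIC::DUX4, a difference of 0.51 ± 0.08 between the fusions. With a library left out the rise ranged from 0.16 to 0.31 and was not called without empty vector replicate 1 or CIC::NUTM1 replicate 1 or 3. The fall ranged from -0.34 to -0.21 and was not called without empty vector replicate 2 or 3 or CIC::DUX4 replicate 1 or 2.

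EN1 (ENSG00000163064, chr2:118842171-118847678, minus strand), the engrailed paralog of midbrain, limb ectoderm and skin, was the lowest of the 10 genes. Its level was 9.33, 11.9 and 12.9 CPM with empty vector, 16.5, 12.3 and 12.4 CPM with CIC::NUTM1 and 8.62, 7.52 and 8.76 CPM with CIC::DUX4. All CIC::DUX4 libraries were below all others, and the CIC::NUTM1 libraries overlapped those with empty vector. Between the fusions EN1 differed by 0.72 ± 0.17 (edgeR adjusted p = 0.00632). Without CIC::NUTM1 replicate 1 that difference was 0.57 and was lost (edgeR adjusted p = 0.0532). Against empty vector EN1 did not pass, with a log2 change of -0.46 with CIC::DUX4 (95% interval -0.80 to -0.13, edgeR adjusted p = 0.0897) and 0.26 with CIC::NUTM1 (95% interval -0.07 to 0.59, edgeR adjusted p = 0.323). Without empty vector replicate 1 the CIC::DUX4 change was -0.58 and passed (edgeR adjusted p = 0.0422). EN2 made up 93.5%, 93.5% and 94.3% of the summed engrailed level per kilobase with empty vector, CIC::NUTM1 and CIC::DUX4, and the sum was 60.9 ± 6.22, 72.5 ± 7.67 and 50.5 ± 2.33 CPM per kilobase.

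ZIC2 (ENSG00000043355, chr13:99981772-99986773, plus strand), a zinc finger factor of the forebrain and dorsal neural tube, was at 130.9, 128 and 126.5 CPM with empty vector. It was at 196, 149.5 and 154 CPM with CIC::NUTM1 and at 104, 108 and 109 CPM with CIC::DUX4. The empty vector and CIC::DUX4 libraries were tight and separate, and the CIC::NUTM1 group was spread by its replicate 1. The means were 128 ± 2.31, 166.5 ± 25.4 and 107 ± 2.72 CPM (SD, n = 3 each). The fitted log2 change was 0.37 ± 0.08 with CIC::NUTM1 and -0.26 ± 0.08 with CIC::DUX4, and the fusions differed by 0.64 ± 0.08. The rise kept its call with each library left out (0.24 to 0.45). The fall ranged only from -0.28 to -0.24 but was not called in any of its 6 fits with a library left out.

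ZIC5 (ENSG00000139800, chr13:99962964-99971909, minus strand), a neural crest factor that lies 9862 bases from ZIC2 on the other strand, was at 50.2, 54.7 and 47.9 CPM with empty vector. It was at 78.8, 67.7 and 64.7 CPM with CIC::NUTM1 and at 39.6, 48.2 and 42.7 CPM with CIC::DUX4. The CIC::NUTM1 libraries were the 3 highest, and CIC::DUX4 replicate 2 overlapped the empty vector range. ZIC5 rose by 0.46 ± 0.09 with CIC::NUTM1 (edgeR adjusted p = 0.000691) and exceeded its CIC::DUX4 level by 0.69 ± 0.09 (edgeR adjusted p = 1.49e-05). Both held with each library left out. With CIC::DUX4 its change was -0.23 (95% interval -0.42 to -0.04, edgeR adjusted p = 0.155), close in size to the -0.26 of ZIC2 but not called.

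ZIC1, a cerebellar factor whose gene overlaps ZIC4 on the other strand, was low at 1.74 ± 0.258 CPM with empty vector and 2.29 ± 0.93 with CIC::DUX4. It rose to 4.76 ± 1.03 CPM with CIC::NUTM1, by 1.43 ± 0.30 (edgeR adjusted p = 0.00118). Its difference between the fusions, 1.02 ± 0.30 (edgeR adjusted p = 0.0351), was lost in 4 of 6 fits with a library left out, at an adjusted p of up to 0.168. ZIC2 made up 63.3%, 65.1% and 62.7% of the ZIC level per kilobase with empty vector, CIC::NUTM1 and CIC::DUX4, and ZIC5 17.9%, 19.7% and 18.1%. The ZIC sum was 61.3 ± 1.37, 77.1 ± 9.78 and 51.7 ± 2.1 CPM per kilobase.

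**Figure D2:**
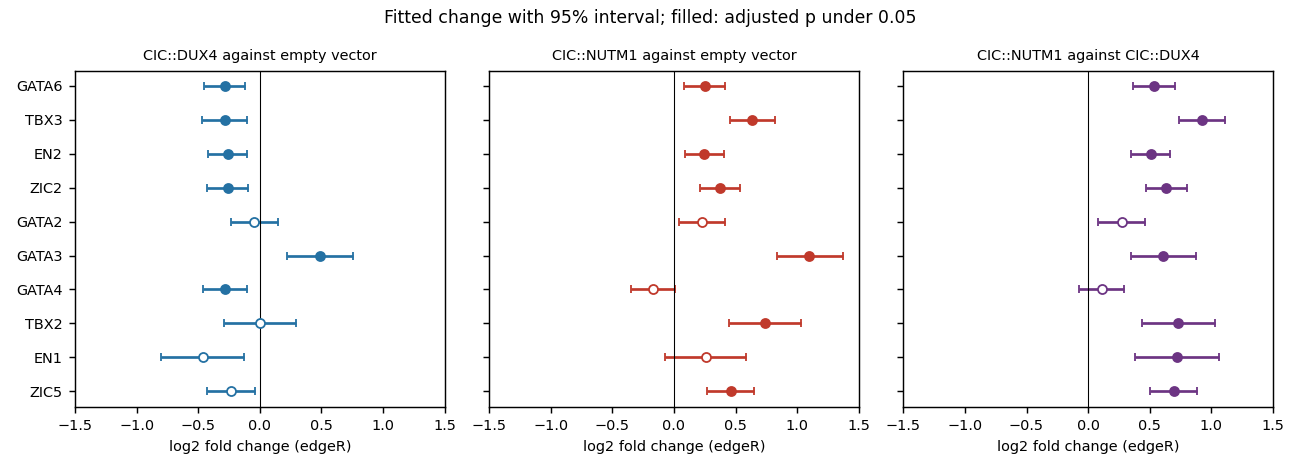
Fitted log2 fold change (horizontal axes) of the 10 genes in the 3 comparisons, with 95% intervals (bars, n = 3 libraries per group), where filled points have an edgeR adjusted p under 0.05. The changes that chose GATA6, TBX3, EN2 and ZIC2 are within 0.29 of 0 for CIC::DUX4. For CIC::NUTM1 against CIC::DUX4 the points of the 6 paralogs are above 0, and the rule places the 4 chosen genes there.

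With CIC::DUX4, 6 of the 10 genes were called (adjusted p under 0.05 over all genes tested), 1 higher and 5 lower. Over all genes 8.24% were called, 6.96% higher and 1.27% lower. For the 4 chosen genes nothing is read from this, since the rule used the contrast. Of the 6 paralogs, GATA3 rose, GATA4 fell and 4 did not pass. The median log2 change of the 6 was -0.14, against a median of -0.0015 over all genes tested. The 14 other tested genes of these families had a median of -0.0024, with 1 called higher and none lower.

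With CIC::NUTM1, the 4 chosen genes were higher by the rule. Of the 6 paralogs 3 were called, GATA3, TBX2 and ZIC5, all higher. Over all genes 15.3% were called, 11.5% higher and 3.83% lower. None of the 6 was called lower, and their median log2 change was 0.36, against -0.00086 over all genes. GATA2, GATA4 and EN1 did not pass, and the change of GATA4 was negative (-0.17). The 14 other tested genes of these families had a median of -0.053, with 2 called higher and 1 lower. Their levels with empty vector spanned 0.046 CPM (TBX4) to 121.6 CPM (TBX1), and the part of level in this contrast was not tested. Between the fusions the rule places the 4 chosen genes higher with CIC::NUTM1, and of the 6 paralogs 4 were higher, GATA3, TBX2, EN1 and ZIC5, and none lower. Over all genes 6.61% differed between the fusions, 4.97% higher and 1.64% lower with CIC::NUTM1. The median difference of the 6 paralogs was 0.65, against -0.0053 over all genes. For the 14 other tested genes of these families it was 0.13, with 1 called higher and none lower.

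All of these changes were small beside those of ETV4, a CIC target gene, which went from 0.51 to 207 CPM with CIC::NUTM1 and to 193 CPM with CIC::DUX4. Of the 10 genes, GATA3 was the only one whose fitted change against empty vector reached 1 on the log2 scale, and it did so with CIC::NUTM1. Divided by exon length, EN2 and ZIC2 were the highest of the 10 in each group, at 57.0 ± 5.58 and 38.8 ± 0.697 CPM per kilobase with empty vector, and EN1 was the lowest, at 3.95 ± 0.646. With empty vector the order was EN2, ZIC2, GATA6, GATA2, TBX3, GATA4, GATA3, ZIC5, TBX2 and EN1, and no neighbours in it overlapped in their libraries. With CIC::NUTM1, GATA3 moved from place 7 to place 3, but GATA3, GATA6, TBX3 and GATA2 overlapped from each to the next, and so did ZIC5, TBX2 and GATA4. With CIC::DUX4, GATA2, GATA6 and GATA3 overlapped from each to the next, as did ZIC5 and TBX2.

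Opposite calls by the 2 fusions were found for 9 genes, 0.0512% of those tested, and all 9 were higher with CIC::NUTM1. The 4 chosen genes were among them by the rule. The other 5 were HOXA10 and HOXA11, homeobox genes of the posterior body axis, CDKN1B, which encodes the cell cycle inhibitor p27, COG7, a Golgi subunit, and ACTG1, cytoplasmic actin. HOXA11 changed by 0.70 ± 0.08 with CIC::NUTM1 and -0.41 ± 0.08 with CIC::DUX4, and CDKN1B by 0.77 ± 0.09 and -0.44 ± 0.09. These 2 genes were called in opposite directions in every alternative fit at the same threshold, including each library left out, whereas 0 to 4 of the chosen genes were. Just inside the threshold lay TBX3, with a CIC::DUX4 change of -0.29, and just outside it, among the genes named here, EGLN1, with -0.24. Both comparisons share the empty vector libraries, so an empty vector library that is high or low moves both changes the same way.

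**Figure D3:**
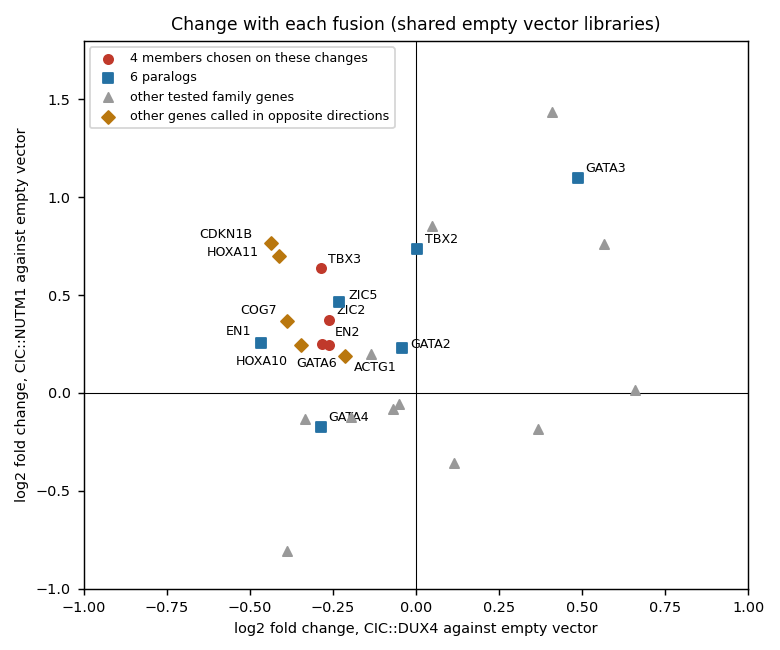
Fitted log2 fold change against empty vector with CIC::DUX4 (horizontal) and CIC::NUTM1 (vertical) for the chosen genes (circles), the 6 paralogs (squares), 12 of the 14 other tested genes of the 4 families (triangles, without TBX4, which lies outside the axes, and 1 gene not reported here) and the other 5 genes called in opposite directions (diamonds); both axes use the same empty vector libraries. GATA3 lies at 0.49 and 1.10, away from GATA6 at -0.28 and 0.25.

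The 3 comparisons differed in how often calls were kept with a library left out. Of the paralogs, GATA3, TBX2 and ZIC5 kept their call for the difference between the fusions in all 6 fits, and EN1 in 5 of 6. For CIC::NUTM1 against empty vector, GATA3, TBX2 and ZIC5 kept theirs in all 6. The rule selected the 4 other genes on their changes with both fusions, which also fixes the direction between the fusions, so their kept calls are no support. For CIC::DUX4 against empty vector none of the 6 called genes kept its call in all 6 fits, and no member was called at all without empty vector replicate 3 or without CIC::DUX4 replicate 1. Their fitted changes kept their sign in each of those fits. Over all genes, 954 of 18228 were called higher and 75 lower without that empty vector library. Without that CIC::DUX4 library it was 805 and 60 of 18103, in place of 1224 and 224 of 17576 with all 9 libraries.

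**Figure D4:**
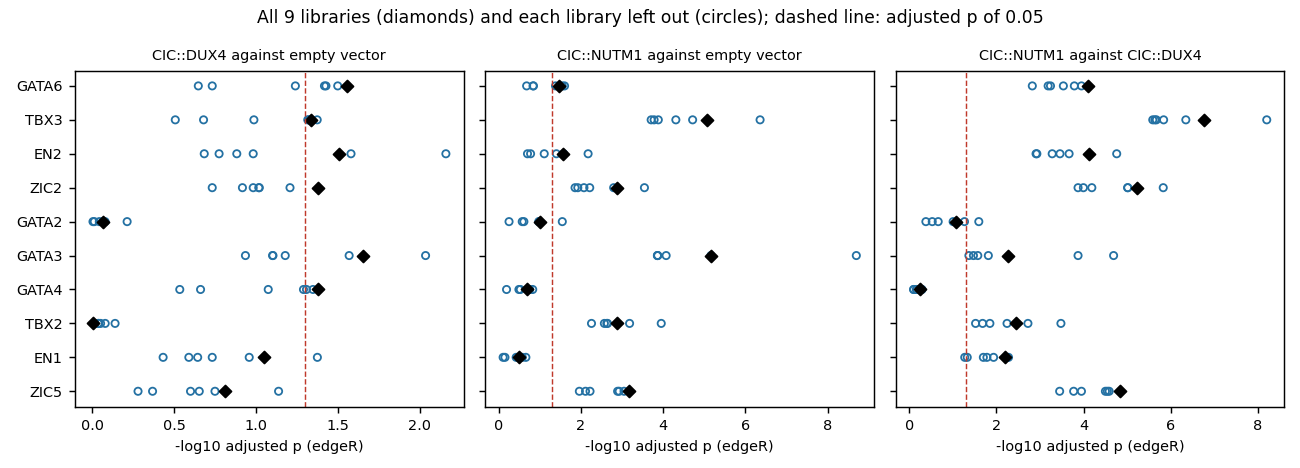
Minus log10 of the edgeR adjusted p (horizontal axes) of the 10 genes in the 3 comparisons, with all 9 libraries (diamonds) and with each of the 6 libraries of the compared groups left out (circles); the dashed line marks 0.05. For CIC::DUX4 against empty vector the circles of all 6 called genes fall on both sides of the line or, for ZIC2, all to its left.

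For each chosen gene, the 3 tested genes with the most similar pattern were taken by Pearson correlation of log2 CPM over the 9 libraries, which share 3 groups. For GATA6 these were NKX2-5 (r = 0.984), a cardiac homeobox gene, ACTG1 (0.98) and HOXA10 (0.97). For TBX3 they were the oxygen sensor gene EGLN1 (0.983), CDKN1B (0.983) and HOXA11 (0.978), and for EN2 they were HLA-C (0.977), EN1 (0.969) and CPE (0.965). For ZIC2 they were HOXB8 (0.987), HOXA5 (0.984) and PPP1R9B (0.97). These libraries are the ones on which the 4 genes were chosen. Among the 10 genes, ZIC2 and ZIC5 had r = 0.954 and TBX3 and TBX2 0.855, while GATA6 had 0.48 with GATA3 and 0.361 with GATA4. Pairs from different families ranged from -0.124 (GATA4 and TBX2) to 0.967 (TBX3 and ZIC5). TBX2 had a higher value with ZIC2 (0.878) than with TBX3, so high values were not particular to paralogs.

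Genes for proteins that bind or assist these factors were listed as 19 partners, all tested: GATA cofactors, PBX and MEIS homeodomain partners of engrailed, TLE corepressors and GLI factors that bind ZIC proteins. With CIC::DUX4, 3 rose (PBX3, TLE4 and GLI3) and none fell, and with CIC::NUTM1, 6 rose (PBX3, MEIS1, MEIS2, TLE3, TLE4 and GLI3) and none fell. The list's median log2 change was -0.0098 and 0.14 in these comparisons, against -0.0015 and -0.00086 over all genes. Of all genes 6.96% rose and 1.27% fell with CIC::DUX4, and 11.5% rose and 3.83% fell with CIC::NUTM1. PBX3 rose from 30.7 ± 2.55 to 84.7 ± 14.9 CPM with CIC::NUTM1 (log2 change 1.46 ± 0.12, edgeR adjusted p = 3.79e-08) and to 52.0 ± 6.86 CPM with CIC::DUX4 (0.76 ± 0.12, edgeR adjusted p = 0.000227). GLI3, a zinc finger mediator of hedgehog signalling, rose by 1.74 ± 0.14 with CIC::NUTM1 (edgeR adjusted p = 9.47e-07) and by 0.93 ± 0.14 with CIC::DUX4 (edgeR adjusted p = 0.000565). Between the fusions NKX2-5, PBX3, MEIS1, MEIS2, TLE3 and GLI3 were higher with CIC::NUTM1, as were 4.97% of all genes. NKX2-5, the GATA4 partner in heart that tracked GATA6, differed by 0.32 ± 0.07 (edgeR adjusted p = 0.00596).

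Of 9 midbrain and hindbrain genes that work with the engrailed factors, 6 were tested. GBX2, the hindbrain homeobox gene, rose by 1.82 ± 0.17 with CIC::DUX4 (edgeR adjusted p = 2.01e-08) and by 1.95 ± 0.17 with CIC::NUTM1 (edgeR adjusted p = 3.25e-09), so it moved up with both fusions where EN2 moved apart. PAX5 rose with both, from 0.455 CPM to 1.77 with CIC::DUX4 and 10.1 with CIC::NUTM1. PAX8 had no count with empty vector and was, with CIC::DUX4, at least 9.31-fold higher at 1.18 CPM than a floor of 3 counts per library (edgeR adjusted p = 9.2e-05). It was lower with CIC::NUTM1 than with CIC::DUX4, at 0.147 CPM, a call lost in 4 of 6 fits with a library left out. In all, 3 of the 6 rose with CIC::DUX4 and 2 with CIC::NUTM1, none fell, and the median change was 0.82 and 1.05 in that order. Over all genes 6.96% and 11.5% rose, 1.27% and 3.83% fell, and the medians were -0.0015 and -0.00086.

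Genes known as repressed by TBX2 or TBX3 include the cell cycle inhibitor genes CDKN2B, CDKN2A and CDKN1A, and none of these 3 passed as lower with CIC::NUTM1, where TBX2 rose. Of all genes 3.83% were called lower there. CDKN2B, the p15 inhibitor gene, rose by 1.41 ± 0.13 with CIC::NUTM1 (edgeR adjusted p = 1.74e-08) and by 0.58 ± 0.13 with CIC::DUX4 (edgeR adjusted p = 0.00377). The latter call was lost in 1 of 6 fits with a library left out, at an adjusted p of 0.0501. CDKN1A, the p21 gene, changed by -0.17 with CIC::NUTM1 (95% interval -0.43 to 0.08) and did not pass. Between the fusions CDKN2B was higher with CIC::NUTM1 by 0.84 ± 0.12 (edgeR adjusted p = 8.17e-05). CDKN2A, the p16 gene, was higher by 0.32 ± 0.08 (edgeR adjusted p = 0.0111), a call lost in 3 of 6 fits with a library left out (edgeR adjusted p up to 0.0639).

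Of 12 genes of BMP signalling, which acts upstream of GATA and T-box genes in embryos, 5 rose and 2 fell with CIC::NUTM1, and 3 rose and 1 fell with CIC::DUX4. The ligand gene BMP7 rose by 1.51 ± 0.11 with CIC::NUTM1 (edgeR adjusted p = 1.75e-07) and by 0.55 ± 0.11 with CIC::DUX4 (edgeR adjusted p = 0.00537). The target and inhibitor gene SMAD7 rose by 0.63 ± 0.11 with CIC::NUTM1 (edgeR adjusted p = 0.000129), and ID2, a target, fell by 0.40 ± 0.07 with CIC::NUTM1 (edgeR adjusted p = 0.000266) and by 0.37 ± 0.07 with CIC::DUX4 (edgeR adjusted p = 0.00129). Of the other calls, ID1, SMAD6 and MSX1 with CIC::NUTM1 and ID1 and BAMBI with CIC::DUX4 were lost in 2 to 5 of 6 fits with a library left out. The median change of the 12 genes was -0.04 and -0.13 for the 2 fusions in that order, against -0.00086 and -0.0015 over all genes. Of all genes 11.5% rose and 3.83% fell with CIC::NUTM1, and 6.96% rose and 1.27% fell with CIC::DUX4. Of 8 endoderm genes and GATA targets 3 were tested, and 5 had too few counts. With CIC::NUTM1, 2 of the 3 were called and with CIC::DUX4 1, all higher, beside the same shares of all genes. The remaining tested gene did not pass in any comparison. HNF4A, the liver and kidney nuclear receptor, had 4 counts in all with empty vector and rose to 0.938 CPM with CIC::NUTM1, a ratio of 16.6 (exact 95% counting interval 6.14 to 63.3, edgeR adjusted p = 0.00135). It rose to 1.42 CPM with CIC::DUX4, a ratio of 28.1 (exact 95% counting interval 10.6 to 105, edgeR adjusted p = 0.000322). FOXA2, a forkhead factor of endoderm, rose with CIC::NUTM1 from 0.187 to 2.19 CPM (edgeR adjusted p = 5.31e-05) and did not pass with CIC::DUX4 (edgeR adjusted p = 0.153).

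Annotated genes that overlap one of the 10 or lie within 10 kb of it numbered 21 pairings, of which 11 were tested. ZIC2 and ZIC5 are each other's neighbours there. Besides them GATA2-AS1 was called with CIC::NUTM1, and the antisense gene ENSG00000267131 at TBX2 between the fusions, with 20, 5 and 14 counts with CIC::NUTM1 and 3, 1 and 1 with CIC::DUX4 (edgeR adjusted p = 0.0404), a call lost in 5 of 6 fits with a library left out. The protein-coding neighbours BCAS3 of TBX2, CNPY1 of EN2 and NEIL2 of GATA4 did not pass in any comparison.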

How the data were processed

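For the 9 libraries the authors deposited a table of raw gene counts and, in a second table, log2 CPM for 15811 named genes. STAR 2.7.10b, R 4.2.2, edgeR 3.40.2 and GRCh38 are named per the submitters' processing notes. The counting program, annotation and use of strand are not given in the sources used here. Libraries were strand-directional, per the labels' protocols. Groups came from the sample titles. Symbols matched 62622 of 62700 IDs, and positions and exon lengths came from GENCODE 29 on GRCh38.

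The test was run in R 4.3.3 with edgeR 4.0.16 on the raw counts: filterByExpr (17576 of 34765 genes with a count), TMM scaling, robust quasi-likelihood fitting of all 9 libraries with a mean for each group, and Benjamini-Hochberg adjustment over all genes tested, with calls at an adjusted p under 0.05. The biological coefficient of variation was 10.1%. SEs come from the quasi-likelihood F statistic. A fold against a group without a count is a lower bound from 3 counts per library, and ratios to groups with few counts have exact 95% binomial intervals; both cover counting error only. The members and gene lists were chosen with earlier results of these data known. Named genes were the members, their tested family genes, list genes called in a comparison, the genes called in opposite directions, the 3 genes most like each chosen gene, and ETV4 for scale. Alternatives were other scalings and filters, DESeq2 1.42.0, limma-trend (limma 3.58.1) on the deposited log2 CPM, fits restricted to the compared groups, a block for the replicate number, omission of each library, and a threshold of 1 on the log2 change. The scripts were tested on simulated data. Per the labels' protocols, each replicate had its own day of transfection. Figures were drawn with matplotlib 3.10.9. Some listed genes are not reported here.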

Additional observations from a re-analysis of the deposited data

How the results depend on the processing

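No called change of the 10 genes turned direction in any alternative. With at least 10 counts required in every library, 3 members were called for CIC::DUX4 against empty vector (GATA6, EN2 and GATA3) in place of 6. Over all genes 774 of 14571 were called higher there and 187 lower, in place of 1224 and 224 of 17576. With each library left out, the members called for that comparison ranged from 0 to 5. Over all genes its calls ranged from 805 to 1258 higher and from 60 to 229 lower. For CIC::NUTM1 against empty vector the members ranged from 5 to 8, with 1625 to 2134 genes higher and 278 to 977 lower. For CIC::NUTM1 against CIC::DUX4 they ranged from 7 to 9, with 516 to 940 genes higher and 156 to 324 lower. Genes called in opposite directions ranged from 2 to 10 in place of 9. They numbered 5 with upper quartile factors, a scaling under which, as with library totals, GATA6 and EN2 were not called for CIC::NUTM1 against empty vector. A threshold of 1 on the log2 change left 0 members for CIC::DUX4, 1 (GATA3) for CIC::NUTM1, 0 between the fusions and 0 genes in opposite directions. The cause of these differences was not tested. With the replicate number as a block (replicate block), 5, 7 and 8 members were called for CIC::DUX4, CIC::NUTM1 and the difference between the fusions, and 8 genes in opposite directions, TBX3 being lost for CIC::DUX4 (edgeR adjusted p = 0.0651). Deviations of same-numbered libraries from their group means correlated at -0.031 to 0.075, and those of unlike-numbered libraries of different groups at -0.108 to 0.07. Not every library correlated best with its own number, and the numbers were not taken as pairs. These values cannot show whether equal numbers shared a day.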
